A study of Mus musculus with 9 samples.

Results

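The genes described here are the mouse Wnt ligands, their receptors and the secreted proteins that hold them in check. Members were chosen by symbol alone: Wnt, Fzd, Sfrp or Dkk followed by a number, together with Lrp5, Lrp6, Frzb and Wif1. The rule gave 41 of the 24181 genes in the files, made up of 19 Wnt ligands, 10 Frizzled receptors, 2 LRP co-receptors, 5 secreted Frizzled-related proteins (SFRP, Frzb included), 4 Dickkopf genes and Wif1. The rule names symbols and uses no expression value, but it was drawn up with earlier results of these data known.

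The series measured poly(A)-selected RNA from cultured primary mouse cells of 3 types, in 9 libraries. Astrocytes (3 libraries) were taken from cortex at postnatal day 1 to 3 and kept about 21 days, to confluence. Neurons of the dorsal root ganglia (DRG, 3 libraries), the sensory ganglia beside the spinal cord, were taken from E13.5 embryos and kept about 2 weeks. Oligodendrocyte progenitor cells (OPC, 3 libraries), the proliferating cells from which oligodendrocytes form, were taken from cortex at postnatal day 6 to 9 and kept 6 to 7 days. Both cortical cultures came from mice of either sex. No group is named as a mutant or a treated one, and the mouse strain is not given in the sources used here. Donor age, time in culture and, for DRG, tissue of origin changed together with the cell type, and cannot be told apart from it.

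Wnt proteins are lipid-modified secreted ligands that bind Frizzled receptors on the surface of nearby cells. With Lrp5 or Lrp6 as co-receptor, binding stops the degradation of beta-catenin, which then acts with TCF and LEF proteins on target genes; with other co-receptors, Frizzled proteins act on cell polarity and movement. SFRP proteins and Wif1 bind the ligands outside the cell, and Dkk1, Dkk2 and Dkk4 bind Lrp5 and Lrp6. In the developing nervous system the pathway is known for its roles in patterning, in blood vessel growth into the brain, in axon guidance and in the timing of oligodendrocyte differentiation.

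Reads assigned to genes ran from 30710093 to 53594210 per library. Levels are given as CPM, counts scaled to a common library size, with TMM factors that correct that size for composition. The summed level of 10 astrocyte markers was 6747 to 8569 CPM in astrocytes, 312 to 797 CPM in DRG and 992 to 1256 CPM in OPC. Of 10 sensory neuron markers, 9 reached 5 CPM in DRG, with sums of 23090 to 46820 CPM. The sums were 10.3 to 44.2 CPM in astrocytes and 112 to 174 CPM in OPC. Prph was at 0 counts in every library. Reads that fit more than 1 feature were not counted, so this 0 alone does not show that Prph was absent. Of 9 OPC markers, 8 reached 5 CPM in OPC, with sums of 5104 to 6925 CPM, against 341, 1203 and 1311 CPM in astrocyte replicates 1 to 3 and at most 29.1 CPM in DRG. The first astrocyte library stood apart by markers of other cells, the first OPC library by markers of its own lineage, and the third OPC library by transcript length. Genes of fibroblasts, meninges and mural cells summed to 1160, 8407 and 9862 CPM in astrocyte replicates 1 to 3, 250 to 552 CPM in DRG and 2.42 to 2.91 CPM in OPC. Of these 10 genes, 6 reached 5 CPM in astrocytes, 6 in DRG and none in OPC. The astrocyte sum was mostly Acta2 and Tagln. Other genes of the list were higher in DRG: Col3a1 averaged 134 CPM in DRG and 20.2 CPM in astrocytes, Lum 4.48 and 0.21 CPM, Dcn 3.43 and 0.31 CPM, and Rgs5 3.24 and 0.62 CPM. Pdgfrb was at 0 counts in OPC. Microglial genes summed to 2878, 504 and 472 CPM in astrocyte replicates 1 to 3, with 8 of 9 at 5 CPM or more, to 19.3 to 233 CPM in OPC and to 10.4 to 20.6 CPM in DRG. In OPC replicate 3, genes with transcripts of at least 4405 nucleotides lay at a median log2 deviation of −0.29 from the mean of the other OPC libraries. Those of at most 1867 nucleotides lay at 0.28. OPC replicate 1 deviated from its own others the other way, by 0.23 and −0.18. OPC replicate 1 also held Gpr17 at 786 CPM against 9.44 and 9.84 CPM in replicates 2 and 3, Neu4 at 65.1 against 2.79 and 6.16 CPM, and Myrf at 63.8 against 5.41 and 6.14 CPM.

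Frizzled, Lrp and Wnt mRNA was lowest in DRG cultures and highest in astrocytes when summed per kilobase of transcript, which allows genes of different length to be added. The 10 Frizzled genes together stood at 106.5 ± 22.5 CPM per kb in astrocytes (SD, n = 3, as for all errors on levels below), 52.6 ± 4.32 in OPC and 10.9 ± 0.51 in DRG. The co-receptors Lrp5 and Lrp6 stood at 37.3 ± 1.84, 20.3 ± 7.53 and 6.59 ± 0.61 CPM per kb in the same order. The 19 ligands stood at 40.8 ± 7.09, 23.1 ± 2.23 and 9.14 ± 1.10 CPM per kb, and the 5 SFRP genes at 118 ± 22.8, 26.0 ± 2.31 and 15.0 ± 4.12. In each of these 4 sums the 3 astrocyte libraries lay above all OPC libraries and these above all DRG libraries. Dickkopf genes and Wif1 had other orders. The Dickkopf sum was 50.7 ± 33.4 CPM per kb in astrocytes, 14.3 ± 12.8 in DRG and 1.26 ± 0.49 in OPC. Its astrocyte and DRG libraries overlapped, and OPC lay below both. Wif1 stood at 0.14 ± 0.04 CPM per kb in astrocytes, 0.19 ± 0.03 in DRG and 0.47 ± 0.34 in OPC. These are bulk cultures, so fewer cells of a type and less RNA per cell cannot be told apart.

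Genes were tested one by one with edgeR's quasi-likelihood F-test, with p adjusted over all genes by Benjamini-Hochberg, and each SE below is the log2 difference divided by the square root of F. Of the 41 members, 30 had enough counts to be tested. Between DRG and astrocytes, 22 of the 30 passed an adjusted p of 0.05, 4 higher and 18 lower in DRG, all by at least 2-fold. Of all 14848 genes tested in that comparison, 60.2% passed, 27.4% higher and 32.8% lower in DRG, and 50.3% passed by at least 2-fold, 22.1% higher and 28.2% lower; the median log2 difference was −2.03 over the members and −0.13 over all genes. Between DRG and OPC, 20 of 30 passed, 8 higher and 12 lower in DRG, against 59.5% of all genes, 28.4% higher and 31.1% lower. By at least 2-fold it was 8 higher and 10 lower, against 49.8% of all genes, 25% higher and 24.9% lower; the medians were −0.45 and −0.08. Between OPC and astrocytes, 22 of 30 passed, 7 higher and 15 lower in OPC, all by at least 2-fold. Among all genes 51.8% passed, 26.3% higher and 25.5% lower, and 41% by at least 2-fold, 18.1% higher and 22.9% lower; the medians were −1.34 and 0.09. The share of members that passed was thus near the background in DRG against OPC, and in the other comparisons most members that passed were higher in astrocytes. These 3 comparisons share libraries. The libraries of the 2 types did not overlap for 23, 21 and 21 of the 30 members in the 3 comparisons in that order. Among all genes this held for 69%, 67.4% and 61.3%, so separate ranges were common in these data. The 11 members left untested had too few counts, and all of them averaged below 1 CPM in every cell type.

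In astrocytes 11 members were at least 2-fold higher than in each of the other cell types (Fzd2, Fzd4, Fzd5, Fzd7, Fzd8, Lrp5, Wnt5a, Wnt5b, Wnt9a, Sfrp1 and Dkk2), which 13.8% of all genes were. OPC had 3 such members (Fzd9, Wnt7b and Sfrp2, against 8.76% of genes) and DRG 2 (Wnt16 and Wnt6, against 14.8%). In the other direction, 9 members were at least 2-fold lower in DRG than in both glial types (Fzd1, Fzd2, Fzd3, Fzd10, Lrp5, Lrp6, Wnt7a, Wnt7b and Sfrp2, against 14.7% of genes). OPC were lowest for 6 (Wnt2, Wnt5a, Wnt9a, Sfrp4, Sfrp5 and Dkk3, against 10.2%) and astrocytes for 3 (Wnt3, Wnt6 and Frzb, against 7.94%). With only the compared cell types, Fzd10 and Wnt7b were lost from the lower members of DRG. Wnt6 and Frzb were lost from those of astrocytes, and Frzb was added to the higher members of DRG. Without the first astrocyte and the third OPC library, 12 members were higher in astrocytes (Fzd1 was added), 4 in OPC (Fzd10 was added) and 3 in DRG (Frzb was added), while 8 were lower in DRG (Fzd10 was lost), 6 in OPC and 2 in astrocytes (Wnt6 was lost). Without OPC replicate 1 the higher counts were 12 in astrocytes (Fzd3 was added), 3 in OPC and 1 in DRG (Wnt6 was lost), and the lower counts 9 in DRG, 5 in OPC (Wnt5a was lost) and 2 in astrocytes (Frzb was lost).

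The promoters of 4 members are shown because each stands for a pattern among the cell types: Fzd7 for astrocytes, Fzd9 for OPC, Wnt7a for both glial types against DRG, and Frzb for DRG over astrocytes. Each sequence is the 250 bases before the annotated start, from RefSeq on GRCm38.p6, written 5′ to 3′ on the strand of the gene; they lie at chr1:59481897-59482146 (plus), chr5:135251048-135251297 (minus), chr6:91411354-91411603 (minus) and chr2:80447397-80447646 (minus). Capitals mark a match to the core motif of TCF and LEF factors, searched as CTTTGNN on both strands, with A or T at each N; no other motif was searched for in these windows.
Fzd7: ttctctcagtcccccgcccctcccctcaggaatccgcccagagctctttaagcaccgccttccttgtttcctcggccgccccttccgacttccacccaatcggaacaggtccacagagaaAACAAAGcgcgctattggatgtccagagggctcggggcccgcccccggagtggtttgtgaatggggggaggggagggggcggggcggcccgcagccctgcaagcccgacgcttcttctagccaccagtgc
Fzd9: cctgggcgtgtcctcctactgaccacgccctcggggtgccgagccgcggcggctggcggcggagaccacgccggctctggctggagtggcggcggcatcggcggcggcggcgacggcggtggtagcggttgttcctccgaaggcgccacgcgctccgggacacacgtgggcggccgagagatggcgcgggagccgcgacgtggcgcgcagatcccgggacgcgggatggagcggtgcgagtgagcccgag
Wnt7a: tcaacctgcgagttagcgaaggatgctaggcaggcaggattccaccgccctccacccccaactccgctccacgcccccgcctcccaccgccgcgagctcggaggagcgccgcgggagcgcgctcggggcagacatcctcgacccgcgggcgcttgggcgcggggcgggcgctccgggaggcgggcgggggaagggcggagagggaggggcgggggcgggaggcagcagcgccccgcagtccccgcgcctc
Frzb: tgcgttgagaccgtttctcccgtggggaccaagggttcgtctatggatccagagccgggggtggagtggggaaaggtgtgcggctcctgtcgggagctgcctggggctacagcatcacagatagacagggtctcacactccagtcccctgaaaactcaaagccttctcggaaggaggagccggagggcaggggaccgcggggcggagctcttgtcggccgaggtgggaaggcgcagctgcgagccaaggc
The 4 windows hold 17, 42, 34 and 16 CpG dinucleotides in the order printed, and Fzd7 alone of the 4 holds a match. Of the 27 members with a promoter in the table, 25 held more CpG than the median promoter; the median was 22 CpG and 70.8% G and C in members, and 6 CpG and 52.4% in all 32851 promoters. The TCF and LEF motif was in 3 of the 27 (11.1%; Dkk1, Fzd7 and Wnt11), and in 14.8% of all promoters.

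Fzd7 (chr1:59482147-59486955, plus strand), a Frizzled receptor used in beta-catenin signalling, stood at 72.9, 196 and 140.4 CPM in astrocyte replicates 1 to 3. It stood at 4.91, 7.16 and 7.07 CPM in DRG and at 9.88, 4.60 and 5.65 CPM in OPC. All astrocyte libraries lay above the other 6, while DRG and OPC overlapped. Fzd7 was 21.3-fold lower in DRG than in astrocytes (log2 difference −4.42, SE 0.45, adjusted p = 4.33e-05) and 20.3-fold lower in OPC (log2 difference −4.35, SE 0.45, adjusted p = 8.97e-05). DRG and OPC differed by −0.07 on the log2 scale (SE 0.39), which did not pass. The level was lowest in astrocyte replicate 1. Among astrocyte libraries, that one had the lowest sums of fibroblast and mural genes and of OPC markers, and the highest of microglial genes. The part of any of those cells in the level was not tested.

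Fzd2 (chr11:102604431-102608058, plus strand), a close relative of Fzd7 and Fzd1, was ordered in all 3 cell types. Astrocytes held 52.0, 71.5 and 72.2 CPM, OPC 10.1, 9.32 and 12.7 CPM, and DRG 2.84, 3.07 and 4.05 CPM. No library of one type reached the range of another. Fzd2 was 19.6-fold lower in DRG than in astrocytes (log2 difference −4.29, SE 0.27, adjusted p = 3.41e-06), 6.10-fold lower in OPC than in astrocyte libraries (log2 difference −2.61, SE 0.25, adjusted p = 6.03e-05) and 3.22-fold lower in DRG than in OPC (log2 difference −1.69, SE 0.24, adjusted p = 0.000327).

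Fzd8, a receptor with high affinity for several Wnt proteins, stood at 38.8, 49.1 and 50.9 CPM in astrocytes. DRG held 9.61, 6.72 and 8.16 CPM and OPC 11.0, 7.18 and 7.31 CPM, so that both overlapped well below astrocytes. The drop from astrocytes was 5.67-fold in DRG (log2 difference −2.50, SE 0.27, adjusted p = 5.63e-05) and 5.44-fold in OPC (log2 difference −2.44, SE 0.27, adjusted p = 0.000117). Fzd4 (chr7:89404366-89410110, plus strand), which is also the receptor for norrin in retinal and brain vessels, stood at 14.7, 28.2 and 26.1 CPM in astrocytes, 3.79, 6.65 and 4.65 CPM in DRG and 9.37, 9.61 and 8.01 CPM in OPC. The 3 types did not overlap. Fzd4 was 4.56-fold lower in DRG (log2 difference −2.19, SE 0.33, adjusted p = 0.000458) and 2.55-fold lower in OPC (log2 difference −1.35, SE 0.32, adjusted p = 0.00706) than in astrocytes. Between DRG and OPC it was at the threshold (log2 difference −0.84, SE 0.32, adjusted p = 0.048) and was lost without astrocyte replicate 2 or 3, DRG replicate 1 or 3, or any OPC library, and with RLE size factors, without the filter on low counts, with DESeq2 or with the length trend removed (log2 −0.66 to −0.85 over these).

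Fzd5, counted from 2 accessions and overlapped on the opposite strand by the exons of Gm38058, averaged 1.70 ± 0.66 CPM in astrocytes, 0.06 ± 0.06 in DRG and 0.06 ± 0.02 in OPC. Fzd5 was 25.1-fold lower in DRG than in astrocytes (log2 difference −4.65, SE 0.72, adjusted p = 0.000511) and 27.4-fold lower in OPC (log2 difference −4.77, SE 0.72, adjusted p = 0.00066), on 8 counts in all DRG libraries and 8 in all OPC libraries. Without DRG replicate 2 the first value became −5.75. Fzd6, a receptor known for planar polarity, held 109 counts over the astrocyte libraries, 2 over DRG and 0 over OPC, and was not tested. Its astrocyte level was 0.15, 1.14 and 1.46 CPM in replicates 1 to 3. The ratio of astrocytes to DRG was 48.0 (95% counting interval 13.0 to 401) and astrocytes were at least 37.4-fold higher than OPC; both cover counting error only, and Fzd6 has 2 accessions and an opposite-strand neighbour, Gm26704.

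Fzd3 (chr14:65192441-65262463, minus strand), the Frizzled gene known for axon guidance and tract formation, was ordered from astrocytes through OPC to DRG. Astrocytes stood at 391, 284 and 304 CPM, OPC at 258, 168.5 and 76.5 CPM and DRG at 42.7, 39.4 and 49.9 CPM. The 3 ranges were separate, and the OPC libraries differed among themselves by more than the other groups did. Fzd3 was 7.41-fold lower in DRG than in astrocytes (log2 difference −2.89, SE 0.39, adjusted p = 0.000243) and 3.81-fold lower than in OPC (log2 difference −1.93, SE 0.38, adjusted p = 0.00197). OPC against astrocytes did not pass (log2 difference −0.96, SE 0.37, adjusted p = 0.0542), but passed under 7 alternatives, among them the fit without OPC replicate 1 (log2 −1.40) or 3 (−0.77). Its transcript is 12734 nucleotides long, the longest of the members, and its OPC levels were ordered as long transcripts were, high in replicate 1 and low in replicate 3.

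Fzd1 (chr5:4753839-4758216, minus strand) was shared by both glial types. Astrocytes stood at 43.2, 128 and 71.6 CPM, OPC at 32.4, 63.0 and 64.3 CPM and DRG at 7.82, 10.9 and 7.41 CPM. Astrocytes and OPC overlapped and DRG lay below both. Fzd1 was 9.31-fold lower in DRG than in astrocytes (log2 difference −3.22, SE 0.44, adjusted p = 0.000249) and 6.12-fold lower than in OPC (log2 difference −2.61, SE 0.43, adjusted p = 0.000709). OPC against astrocytes did not pass (log2 difference −0.61, SE 0.40), and reached −1.22 and passed without the first astrocyte and the third OPC library.

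Fzd9 (chr5:135248938-135251047, minus strand), a Frizzled gene of neural progenitors, was highest in OPC. OPC stood at 42.6, 28.4 and 51.6 CPM, DRG at 1.79, 1.77 and 0.65 CPM and astrocytes at 0.15, 0.95 and 0.91 CPM. Every OPC library lay above all others, and DRG and astrocytes overlapped. Fzd9 was 61.5-fold higher in OPC than in astrocyte libraries (log2 difference 5.94, SE 0.73, adjusted p = 0.000228) and 29.1-fold lower in DRG than in OPC (log2 difference −4.86, SE 0.69, adjusted p = 0.000301). Without the first astrocyte and the third OPC library the first of these was 5.09 on the log2 scale and still passed. The 9 OPC markers also summed lowest in astrocyte replicate 1, where Fzd9 was lowest; the part of OPC in the astrocyte level was not tested.

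Fzd10 (chr5:128601106-128604093, plus strand) turned on 1 astrocyte library. It stood at 13.7, 1.24 and 2.24 CPM in astrocyte replicates 1 to 3, at 0.95, 0.95 and 1.03 CPM in DRG and at 6.35, 4.03 and 6.52 CPM in OPC. DRG lay below both others. The first astrocyte library lay above every OPC library, and replicates 2 and 3 lay below them. Fzd10 was 5.85-fold lower in DRG than in astrocytes (log2 difference −2.55, SE 0.80, adjusted p = 0.021) and 5.76-fold lower than in OPC (log2 difference −2.53, SE 0.80, adjusted p = 0.022). Without astrocyte replicate 1 the first became −0.83 and did not pass, and it also missed without any one DRG library, with only the compared cell types (log2 −2.48) and with the replicate number as a block (−1.93). The second missed without any one DRG library or OPC replicate 3. OPC and astrocytes were level (log2 difference −0.02, SE 0.75), and without astrocyte replicate 1 OPC were higher, by 1.70, and passed.

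**Figure D1:**
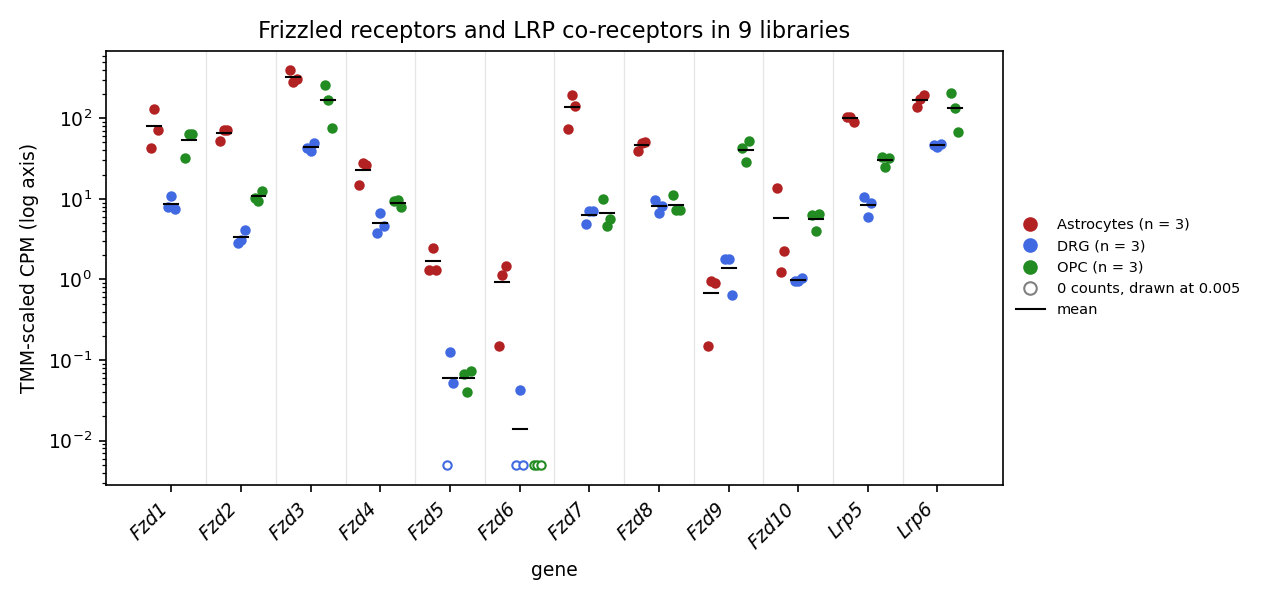
TMM-scaled CPM on a log axis for the 10 Frizzled genes and Lrp5 and Lrp6, with 1 point per library, 3 libraries per cell type and a bar at the mean; open points had 0 counts and are drawn at the foot of the axis. Astrocytes lead for Fzd2, Fzd4, Fzd5, Fzd7, Fzd8 and Lrp5, OPC lead for Fzd9 (28.4 to 51.6 CPM), and DRG lie lowest for Fzd1, Fzd2, Fzd3, Fzd10, Lrp5 and Lrp6.

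The make-up of the Frizzled family differed as well as its sum. Per kilobase, Fzd7 gave 27.3 ± 7.40% and Fzd3 25.4 ± 9.88% of Frizzled mRNA in astrocytes, followed by Fzd1 (17.3%) and Fzd2 (16.9%). In OPC Fzd9 gave 33.7 ± 8.39%, Fzd3 24.9 ± 12.4% and Fzd1 24.6 ± 9.58%. Fzd3 led in DRG with 31.8 ± 4.14%, ahead of Fzd1 with 19.0 ± 3.53%. The leading pair in astrocytes, and the leading 3 in OPC, did not differ beyond their spread over libraries. These shares were not tested.

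**Figure D2:**
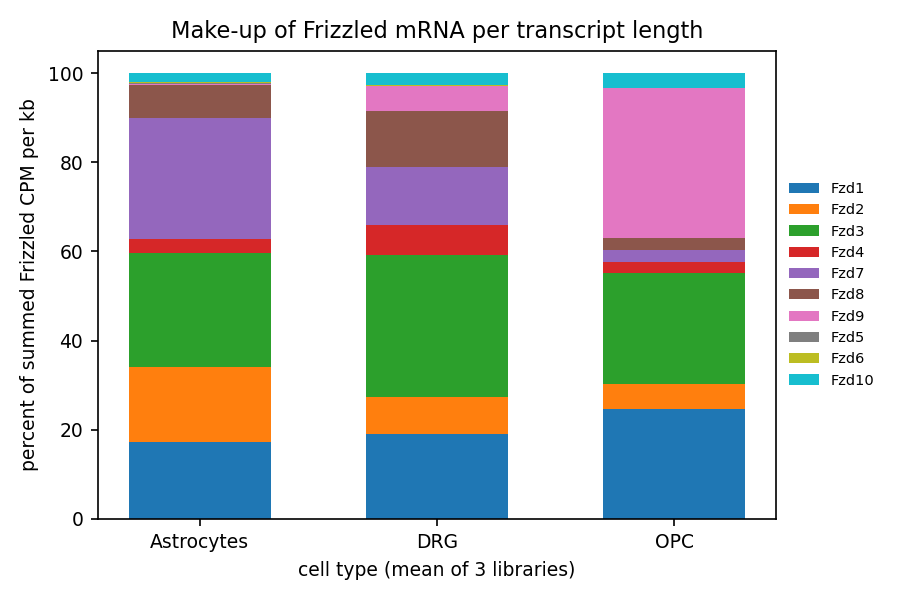
Percent of the summed Frizzled level per kilobase of transcript contributed by each of the 10 genes, as the mean of 3 libraries per cell type. Fzd9 fills 33.7% of the OPC bar and 5.65% of the DRG bar, while Fzd7 fills 27.3% of the astrocyte bar and 2.77% of the OPC bar.

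The co-receptors Lrp5 and Lrp6 were both lower in DRG than in glia. Lrp5 (chr19:3584825-3686585, minus strand) stood at 104, 102.5 and 91.0 CPM in astrocytes, 33.2, 25.2 and 32.3 CPM in OPC and 10.6, 5.87 and 8.93 CPM in DRG, with no overlap between types. It was 11.7-fold lower in DRG than in astrocytes (log2 difference −3.55, SE 0.26, adjusted p = 6.72e-06), 3.58-fold lower in DRG than in OPC (log2 difference −1.84, SE 0.24, adjusted p = 0.000191) and 3.28-fold lower in OPC than in astrocyte libraries (log2 difference −1.72, SE 0.24, adjusted p = 0.000427). Lrp6 (chr6:134446476-134566913, minus strand), which is needed for most beta-catenin signalling in the embryo, stood at 139.8, 172 and 195 CPM in astrocytes, 205, 133 and 67.2 CPM in OPC and 46.3, 44.5 and 48.2 CPM in DRG. Astrocytes and OPC overlapped, and DRG lay below. Lrp6 was 3.64-fold lower in DRG than in astrocytes (log2 difference −1.87, SE 0.35, adjusted p = 0.00149) and 2.91-fold lower than in OPC (log2 difference −1.54, SE 0.35, adjusted p = 0.004); OPC against astrocytes did not pass (log2 difference −0.32, SE 0.34). Its transcript is 9368 nucleotides long, and in OPC it was highest in replicate 1, where long transcripts were high, and lowest in replicate 3, where they were low; the part of length was not tested. Per kilobase, Lrp5 made up 51.8 ± 5.84% of the pair in astrocytes, 31.7 ± 13.1% in OPC and 24.6 ± 5.03% in DRG.

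Of the 19 ligands, 11 were tested. Among these, DRG against astrocytes gave 3 higher and 5 lower, DRG against OPC 5 higher and 2 lower, and OPC against astrocytes 3 higher and 4 lower. All genes gave 27.4% higher and 32.8% lower, 28.4% and 31.1%, and 26.3% and 25.5% in these comparisons, so that 3 of 11 higher lies at the background. No Frizzled gene passed as higher in DRG than in either glial type.

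Wnt7a (chr6:91363981-91411353, minus strand), which with Wnt7b acts on brain endothelium during vessel growth, was a ligand of both glial cultures. Astrocytes stood at 45.3, 74.9 and 85.3 CPM, OPC at 55.6, 51.0 and 67.2 CPM and DRG at 0.91, 0.65 and 0.77 CPM. The glial ranges overlapped, and both lay far above DRG. Wnt7a was 88.0-fold lower in DRG than in astrocytes (log2 difference −6.46, SE 0.33, adjusted p = 1.47e-06) and 74.5-fold lower than in OPC (log2 difference −6.22, SE 0.33, adjusted p = 2.56e-06). OPC against astrocytes gave −0.24 (SE 0.25), which did not pass; without the first astrocyte and the third OPC library it was −0.75 and passed. Per kilobase, Wnt7a made up 78.9 ± 3.68% of ligand mRNA in OPC, 53.6 ± 17.1% in astrocytes and 2.76 ± 0.81% in DRG.

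Wnt7b (chr15:85535437-85581821, minus strand) was higher in OPC than in both others. OPC stood at 2.88, 7.79 and 6.47 CPM, astrocytes at 0.04, 0.85 and 0.64 CPM, and DRG held 1 count over its 3 libraries. The OPC libraries lay above all others. Wnt7b was 11.3-fold higher in OPC than in astrocyte libraries (log2 difference 3.50, SE 0.89, adjusted p = 0.00957), and 4.13 without astrocyte replicate 2 or 2.68 without the first astrocyte and the third OPC library, both of which passed. It was lower in DRG than in OPC (log2 difference −8.95, SE 1.33, adjusted p = 0.000405) and in astrocytes (log2 difference −5.45, SE 1.36, adjusted p = 0.00702). With 1 count, the ratio to DRG is better read with its 95% counting interval, 668 (119.5 to 26410) for OPC and 53.7 (9.29 to 2157) for astrocytes. The DRG differences depended on single libraries: without DRG replicate 3 they were −10.95 and −7.44, and the difference from astrocytes was −4.85 without DRG replicate 2 and −4.82 without astrocyte replicate 2. With only DRG and astrocyte libraries, Wnt7b had too few counts to be tested, so that it entered that comparison through its OPC counts. Wnt7b has 3 accessions and an opposite-strand neighbour with shared exon sequence, AU022754.

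Wnt9a (chr11:59306849-59333552, plus strand), known for its part in joint and skeletal development, was highest in astrocytes, lower in DRG and lowest in OPC. The astrocyte values were 68.8, 19.6 and 54.2 CPM, the DRG values 9.14, 15.2 and 15.9 CPM and the OPC values 1.43, 1.34 and 1.61 CPM. The 3 types did not overlap. Wnt9a was 3.54-fold lower in DRG than in astrocytes (log2 difference −1.83, SE 0.43, adjusted p = 0.00515), 32.5-fold lower in OPC than in astrocyte libraries (log2 difference −5.02, SE 0.50, adjusted p = 7.55e-05) and 9.16-fold higher in DRG than in OPC (log2 difference 3.20, SE 0.46, adjusted p = 0.000335). In DRG it was the leading ligand per kilobase, with 43.7 ± 7.89% of ligand mRNA. Among astrocyte libraries it was lowest in replicate 2, where the 5 choroid plexus and ependyma genes also summed lowest. Those sums were 1070, 169 and 464.5 CPM in replicates 1 to 3, nearly all of it Foxj1, while Folr1 and Ttr stayed at or below 0.25 CPM. The 10 astrocyte markers had the same order, with sums of 8569, 6747 and 7825 CPM. The part of either kind of cell in the Wnt9a level was not tested.

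Wnt5a (chr14:28504543-28527448, plus strand), the ligand best known for signalling without beta-catenin, stood at 9.29, 4.53 and 4.62 CPM in astrocytes, 1.08, 1.03 and 1.32 CPM in DRG and 0.27, 0.47 and 0.75 CPM in OPC. The 3 types were separate. The level was 5.37-fold lower in DRG (log2 difference −2.43, SE 0.46, adjusted p = 0.00167) and 12.4-fold lower in OPC (log2 difference −3.63, SE 0.49, adjusted p = 0.000378) than in astrocytes. DRG were 2.31-fold higher than OPC at the threshold (log2 difference 1.21, SE 0.46, adjusted p = 0.0472), a call that was lost when any library but astrocyte replicate 1 or OPC replicate 3 was left out (log2 0.91 to 1.28), with library size alone (1.05), without the filter (1.19), with the replicate number as a block (1.22) and with the length trend removed (1.17). Without OPC replicate 3 it was 1.87. Wnt5a has 2 accessions and an opposite-strand neighbour, Gm2670. Wnt5b, its close relative with 3 accessions, averaged 2.27 ± 1.69 CPM in astrocytes, 0.03 ± 0.01 in DRG and 0.10 ± 0.07 in OPC. The level was 60.8-fold lower in DRG (log2 difference −5.93, SE 1.04, adjusted p = 0.00104) and 22.8-fold lower in OPC (log2 difference −4.51, SE 0.91, adjusted p = 0.00308), the latter −5.24 without OPC replicate 3 and −5.75 without that and the first astrocyte library. In astrocyte replicate 1 Wnt5b was at 0.36 CPM against 2.90 and 3.57 CPM in the others. The fibroblast and mural sums and the OPC marker sums both had that order. The part of any of these cells was not tested.

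Wnt16 and Wnt6 were the ligands higher in DRG than in both glial types. Wnt16 (chr6:22288178-22298522, plus strand), known from bone, averaged 2.54 ± 0.82 CPM in DRG, and held 292 counts there against 3 in astrocytes and 1 in OPC. The difference was 6.62 on the log2 scale from astrocytes (SE 0.66, adjusted p = 4e-05) and 7.94 from OPC (SE 0.74, adjusted p = 2.88e-05; 9.75 without OPC replicate 1). The count ratios were 110.5 (95% counting interval 37.4 to 539) to astrocytes and 341.5 (60.8 to 13540) to OPC. Wnt16 gave 17.1 ± 6.82% of ligand mRNA per kilobase in DRG.

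Wnt6 stayed below 1 CPM, with 0.76 ± 0.26 CPM in DRG, 0.17 ± 0.12 in OPC and 0.02 ± 0.02 in astrocytes. DRG were higher than astrocytes (log2 difference 4.90, SE 0.86, adjusted p = 0.00105; 5.78 without astrocyte replicate 2), on 91 against 3 counts, a ratio of 34.4 (95% counting interval 11.4 to 170.1). They were also higher than OPC, by 4.30-fold (log2 difference 2.11, SE 0.68, adjusted p = 0.0231), which was lost without DRG replicate 2 (log2 2.05) or 3 (1.88) or OPC replicate 1 (1.65). OPC exceeded astrocytes (log2 difference 2.79, SE 0.91, adjusted p = 0.028), on 24 against 3 counts and although their libraries overlapped. This call was lost without astrocyte replicate 1 (2.66) or 3 (2.35) or OPC replicate 2 (2.24) or 3 (2.58), and was 3.68 without astrocyte replicate 2. With only OPC and astrocyte libraries, Wnt6 had too few counts to be tested. It entered this comparison through its DRG counts.

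Wnt3, a ligand of the beta-catenin branch, was low in astrocytes. It averaged 1.70 ± 0.68 CPM in OPC, 0.81 ± 0.43 in DRG and 0.06 ± 0.02 in astrocytes. The difference from astrocytes was 29.6-fold in OPC (log2 difference 4.89, SE 0.64, adjusted p = 0.000308) and 14.2-fold in DRG (log2 difference 3.82, SE 0.63, adjusted p = 0.000726), while DRG against OPC did not pass (log2 difference −1.07, SE 0.50; −1.50 and past the threshold without DRG replicate 1). Wnt2 was lowest in OPC, with 0.07 ± 0.08 CPM against 2.01 ± 1.56 in astrocytes and 1.49 ± 0.07 in DRG. OPC were 26.7-fold lower than astrocytes (log2 difference −4.74, SE 1.01, adjusted p = 0.00398) and DRG 20.0-fold higher than OPC (log2 difference 4.32, SE 1.00, adjusted p = 0.00475); without OPC replicate 2 these were −6.25 and 5.83. DRG against astrocytes did not pass (log2 difference −0.42, SE 0.81). In astrocytes Wnt2 was at 0.26, 2.49 and 3.26 CPM in replicates 1 to 3. The fibroblast and mural sums had that order, and so did the OPC marker sums (341, 1203 and 1311 CPM). Other members, among them Wnt7a, Sfrp2 and Frzb, had the same order in astrocytes. The part of any of these cells was not tested.

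Wnt4 and Wnt2b did not separate the cell types. Wnt4 (chr4:137277635-137299501, plus strand), known from kidney and gonad development, stood at 12.7, 2.40 and 2.82 CPM in astrocytes, 3.96, 3.58 and 4.42 CPM in DRG and 8.05, 1.51 and 1.40 CPM in OPC. One astrocyte and 1 OPC library, both replicate 1, stood above the others of their type, and all groups overlapped. None of its differences passed (log2 difference −0.59, SE 0.81, for DRG against astrocytes; 0.13, SE 0.81, for DRG against OPC; −0.71, SE 0.81, for OPC against astrocytes). Wnt2b averaged 2.38 ± 0.59 CPM in DRG, 1.44 ± 0.69 in OPC and 1.09 ± 0.38 in astrocytes. DRG against astrocytes did not pass (log2 difference 1.12, SE 0.49, adjusted p = 0.072) although the libraries did not overlap, and it passed without OPC replicate 3 (1.21), with DESeq2 (1.18), with only the compared cell types (1.19) or with the length trend removed (1.23).

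The other 8 ligands were not tested. Wnt1, Wnt3a, Wnt8a, Wnt8b, Wnt9b, Wnt10a, Wnt10b and Wnt11 averaged between 0 and 0.25 CPM in every cell type. Wnt3a held 31 counts in DRG, at 0.07, 0.25 and 0.44 CPM in replicates 1 to 3, with 1 count in astrocytes and 2 in OPC. Wnt8b held 22 counts in astrocytes, at 0.38, 0 and 0.06 CPM in replicates 1 to 3, and none in the others, and Wnt9b held 5 counts, all in astrocyte replicate 2. Wnt11 was counted from 4 accessions, and reads shared among them can be missing from its 2 counts.

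**Figure D3:**
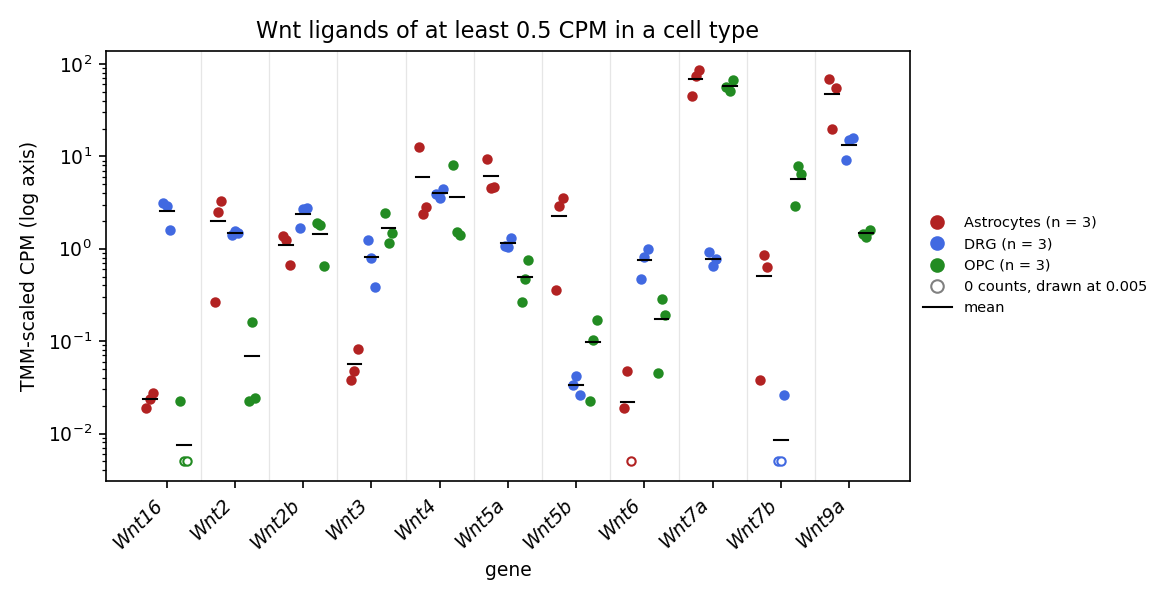
TMM-scaled CPM on a log axis for the 11 Wnt ligands that reached 0.5 CPM in a cell type, with 1 point per library and a bar at the mean of 3; open points had 0 counts and are drawn at the foot of the axis. Wnt7a stands at 45.3 to 85.3 CPM in both glial types and below 1 CPM in DRG, and Wnt9a falls from astrocytes through DRG to OPC.

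The 5 SFRP genes were all tested, and Sfrp1 was highest in astrocytes, Sfrp2 in OPC and Frzb in DRG. Sfrp1 (chr8:23411383-23449632, plus strand) stood at 601, 390.3 and 465 CPM in astrocytes, 43.6, 40.4 and 33.5 CPM in OPC and 28.2, 16.0 and 19.1 CPM in DRG. Its ranges were separate, and it made up 93.7 ± 3.61% of SFRP mRNA per kilobase in astrocytes. Sfrp1 was 23.0-fold lower in DRG than in astrocytes (log2 difference −4.53, SE 0.29, adjusted p = 3.53e-06) and 12.4-fold lower in OPC (log2 difference −3.63, SE 0.28, adjusted p = 2.22e-05). DRG were 1.86-fold lower than OPC (log2 difference −0.90, SE 0.25, adjusted p = 0.0125), which just missed without DRG replicate 2 (log2 −0.73).

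Sfrp2 (chr3:83765750-83774314, plus strand) was highest in OPC. OPC stood at 25.2, 34.8 and 31.2 CPM, astrocytes at 0.70, 1.24 and 1.71 CPM and DRG at 0.64, 0.21 and 0.34 CPM. No ranges overlapped. Sfrp2 was 25.1-fold higher in OPC than in astrocyte libraries (log2 difference 4.65, SE 0.49, adjusted p = 9.89e-05), 78.0-fold lower in DRG than in OPC (log2 difference −6.29, SE 0.53, adjusted p = 1.84e-05) and 3.11-fold lower in DRG than in astrocytes (log2 difference −1.64, SE 0.47, adjusted p = 0.0132; −1.30 and not past the threshold without DRG replicate 2). It gave 58.2 ± 5.40% of SFRP mRNA per kilobase in OPC, where Sfrp1 gave 34.7 ± 5.82%. An opposite-strand gene, Gm26771, shares exon sequence with it.

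Frzb (chr2:80411970-80447396, minus strand) is a Wnt-binding protein first described in cartilage. DRG stood at 11.5, 16.1 and 16.9 CPM, OPC at 4.34, 4.68 and 5.39 CPM and astrocytes at 0.04, 0.90 and 1.69 CPM. The 3 ranges did not overlap. Frzb was 17.2-fold higher in DRG than in astrocytes (log2 difference 4.10, SE 0.90, adjusted p = 0.0035; 4.99 without astrocyte replicate 3) and 5.55-fold higher in OPC than in astrocyte libraries (log2 difference 2.47, SE 0.84, adjusted p = 0.0345). The second was lost without astrocyte replicate 2 (2.51), DRG replicate 2 (2.48), OPC replicate 1 (2.55), 2 (2.50) or 3 (2.23), and with only the compared cell types (2.37); it was 3.37 without astrocyte replicate 3 and 1.65 without the first astrocyte and the third OPC library, and passed in both. DRG against OPC did not pass (log2 difference 1.63, SE 0.80, adjusted p = 0.107), and passed without astrocyte replicate 1 (1.62), with DESeq2 (1.79) or with only the compared cell types (1.63). Per kilobase, Frzb gave 33.9 ± 13.3% and Sfrp1 32.0 ± 1.32% of SFRP mRNA in DRG (SD, n = 3), and Sfrp4 came close behind at 30.7%; these shares did not differ beyond their spread.

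Sfrp4 (chr13:19623175-19632825, plus strand) and Sfrp5 were low in OPC. Sfrp4 stood at 5.51, 8.71 and 16.4 CPM in astrocytes, 16.1, 4.97 and 5.24 CPM in DRG and 0.38, 0.85 and 0.39 CPM in OPC. Astrocytes and DRG overlapped and OPC lay below. Sfrp4 was 18.7-fold lower in OPC than in astrocyte libraries (log2 difference −4.23, SE 0.68, adjusted p = 0.00093) and 16.1-fold higher in DRG than in OPC (log2 difference 4.01, SE 0.67, adjusted p = 0.000804; 3.23 without DRG replicate 1). Sfrp5 averaged 0.85 ± 0.68 CPM in astrocytes, 0.58 ± 0.26 in DRG and 0.03 ± 0.01 in OPC, on 4 OPC counts. Sfrp5 was 25.9-fold lower in OPC than in astrocyte libraries (log2 difference −4.70, SE 0.83, adjusted p = 0.00148; −3.86 without astrocyte replicate 3) and 18.1-fold higher in DRG than in OPC (log2 difference 4.18, SE 0.83, adjusted p = 0.00203). DRG against astrocytes passed for neither gene (log2 difference −0.22, SE 0.59, and −0.52, SE 0.62).

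Wif1 averaged 1.07 ± 0.78 CPM in OPC, 0.43 ± 0.07 in DRG and 0.33 ± 0.09 in astrocytes, and its libraries overlapped in every comparison. OPC against astrocytes passed (log2 difference 1.70, SE 0.58, adjusted p = 0.0338), but was lost without any one astrocyte library, DRG replicate 3, or OPC replicate 1 or 3 (log2 0.98 to 1.82), with only the compared cell types (1.57) and with the replicate number as a block (1.50). DRG against OPC did not pass (log2 difference −1.31, SE 0.57; −1.72 and past the threshold without OPC replicate 2).

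Dkk3 (chr7:112116019-112159482, minus strand), a Dickkopf relative that is not a typical Lrp inhibitor, gave 98.3% of the Dickkopf mRNA per kilobase in astrocytes, 99.4% in DRG and 98.2% in OPC. It stood at 265, 48.8 and 187.5 CPM in astrocytes, 95.5, 14.1 and 33.5 CPM in DRG and 2.59, 5.92 and 4.02 CPM in OPC. Astrocytes and DRG overlapped, with a wide spread within each, and OPC lay below both. Dkk3 was 39.9-fold lower in OPC than in astrocyte libraries (log2 difference −5.32, SE 0.88, adjusted p = 0.00105) and 11.4-fold higher in DRG than in OPC (log2 difference 3.51, SE 0.81, adjusted p = 0.00457; 2.51 without DRG replicate 1). DRG against astrocytes did not pass (log2 difference −1.81, SE 0.75, adjusted p = 0.0611), and passed without astrocyte replicate 2 (−2.25) or DRG replicate 1 (−2.81), with library size alone (−2.03) or with DESeq2 (−1.75). In DRG, Dkk3 was highest in replicate 1 and lowest in replicate 2. The fibroblast and mural sums (552, 250 and 500.5 CPM) and the sensory neuron sums (46820, 23090 and 26370 CPM) both had that order. Neither list shared 1 order gene by gene. Nefl and Nefm were highest in replicate 1, while Isl1, Scn9a, Scn10a, Tlx3 and Tubb3 were lowest there. Of the fibroblast and mural list, Acta2 was highest in replicate 1, and Col3a1 and Rgs5 in replicate 3. In astrocytes Dkk3 was lowest in replicate 2, like Wnt9a, the ependymal genes and the sum of the astrocyte markers. The part of any of these cells in the level was not tested.

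Dkk2, an Lrp ligand that can act as agonist or inhibitor, averaged 3.37 ± 3.19 CPM in astrocytes, 0.14 ± 0.12 in DRG and 0.06 ± 0.03 in OPC. The level was 25.2-fold lower in DRG (log2 difference −4.65, SE 1.08, adjusted p = 0.00467) and 54.0-fold lower in OPC (log2 difference −5.75, SE 1.15, adjusted p = 0.00288) than in astrocytes. Astrocyte replicate 1 held 6.96 CPM against 0.88 and 2.27 CPM in the others; without it the differences were −3.57 and −4.65. They also moved without DRG replicate 1 (−5.25) or 2 (−3.99) and without OPC replicate 3 (−6.36), and passed each time. Dkk1, the best known secreted Lrp inhibitor, held 16 counts in DRG, 3 in astrocytes and 1 in OPC and was not tested. Its DRG levels were 0.37, 0.02 and 0.10 CPM in replicates 1 to 3, so most of its counts came from 1 library, and the groups overlapped. Dkk4 had 0 counts in all 9 libraries.

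**Figure D4:**
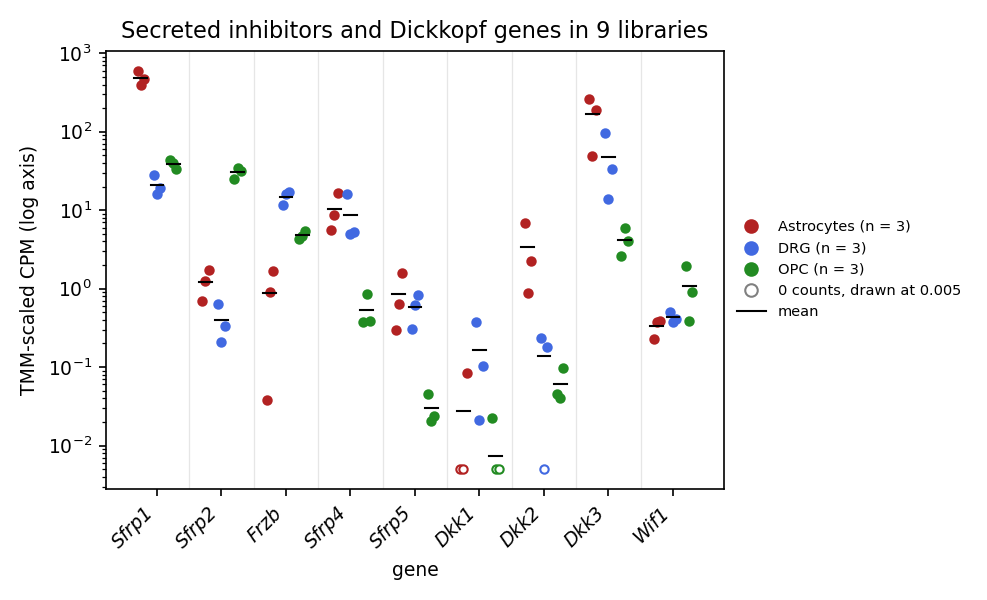
TMM-scaled CPM on a log axis for the 5 SFRP genes, Dkk1, Dkk2, Dkk3 and Wif1, with 1 point per library and a bar at the mean of 3; open points had 0 counts and are drawn at the foot of the axis. Sfrp1 is highest in astrocytes (390.3 to 601 CPM), Sfrp2 in OPC (25.2 to 34.8 CPM) and Frzb in DRG (11.5 to 16.9 CPM).

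The rest of the pathway was read from 6 lists outside these families. Their counts stand beside 27.4% of all genes higher and 32.8% lower in DRG against astrocytes, 28.4% and 31.1% in DRG against OPC, and 26.3% and 25.5% in OPC against astrocytes; these lists are short and the difference from those shares was not tested. Among 10 genes of Wnt secretion and agonists, DRG against astrocytes gave 5 higher and 4 lower, DRG against OPC 6 higher and 2 lower, and OPC against astrocytes 1 higher and 4 lower. R-spondins, secreted proteins that raise the number of Frizzled receptors at the cell surface, are 4 genes here, of which Rspo1, Rspo2 and Rspo4 were higher in DRG than in both glial types. Rspo3 was low throughout, with 0.33 CPM in DRG, 0.46 in astrocytes and 0.10 in OPC, and DRG passed against neither (log2 difference −0.50, adjusted p = 0.556, and 1.63, adjusted p = 0.0959). Rspo2 stood at 94.4, 45.9 and 45.5 CPM in DRG, with no glial library above 0.33 CPM (log2 difference 8.29, SE 0.64, adjusted p = 9.29e-06 against astrocytes; 8.45, SE 0.64, adjusted p = 1.15e-05 against OPC, and 9.32 without OPC replicate 2). Rspo4 stood at 17.2, 16.7 and 16.6 CPM in DRG, on 1943 counts against 2 in astrocytes and 5 in OPC, a ratio to astrocytes of 1103 (95% counting interval 305 to 9114). Rspo1 stood at 24.0, 28.5 and 14.7 CPM in DRG and at most 0.59 CPM in glia (log2 difference 5.76, SE 0.45, adjusted p = 1.29e-05 against OPC). Gpc4, a heparan sulfate proteoglycan that binds Wnts, stood at 470.1, 590.4 and 651 CPM in astrocytes against means of 12.3 CPM in DRG and 6.24 CPM in OPC (log2 difference −5.53, SE 0.27, adjusted p = 1.27e-06, and −6.51, SE 0.28, adjusted p = 3.46e-06).

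Among 17 other co-receptors and genes of receptor turnover, 15 were tested: 4 higher and 7 lower in DRG than in astrocytes, 3 higher and 6 lower in DRG than in OPC, and 5 higher and 6 lower in OPC than in astrocytes. Lgr5, an R-spondin receptor, stood at 41.5, 41.6 and 28.9 CPM in OPC, with means of 1.14 CPM in DRG and 0.12 CPM in astrocytes. It was higher in OPC than in astrocytes (log2 difference 8.27, SE 0.71, adjusted p = 3.9e-05; 9.25 without astrocyte replicate 2) and lower in DRG than in OPC (log2 difference −5.03, SE 0.59, adjusted p = 0.000102). The R-spondin receptor Lgr4 was instead lowest in OPC, with means of 91.9 CPM in astrocytes, 38.8 in DRG and 12.6 in OPC. Its difference between OPC and astrocytes passed (log2 difference −2.87, SE 0.26, adjusted p = 4.76e-05). Lgr6 averaged 0.87 CPM or less in every cell type. Rnf43, a ligase that removes Frizzled receptors from the surface, was highest in OPC, as Lgr5 was, at 7.15, 13.4 and 7.89 CPM against means of 0.48 CPM or less elsewhere (log2 difference −6.43, SE 0.60, adjusted p = 2.9e-05 for DRG against OPC). The ligase Znrf3 averaged 4.96 CPM in astrocytes, 4.73 in OPC and 1.59 in DRG. The Wnt5a receptors divided between cell types: Ror1 averaged 16.8 CPM in astrocytes, 0.85 in OPC and 0.35 in DRG, whereas Ror2 averaged 25.9 CPM in DRG, 26.6 in OPC and 1.10 in astrocytes. Ror1 was lower than in astrocytes in DRG (log2 difference −5.60, SE 0.53, adjusted p = 3.01e-05) and OPC (log2 difference −4.31, SE 0.49, adjusted p = 0.000158), and Ror2 was higher (log2 difference 4.56, SE 0.80, adjusted p = 0.00102, and 4.60, SE 0.80, adjusted p = 0.00141). Without astrocyte replicate 2 the Ror2 values were 5.63 and 5.67. Ryk, another co-receptor, averaged 0.62 CPM in DRG, 6.47 in astrocytes and 8.12 in OPC.

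Of 7 feedback targets, genes that beta-catenin signalling is known to raise in many tissues, 5 were tested. All 5 were lower in DRG than in OPC, 4 were higher in OPC than in astrocytes, and DRG against astrocytes gave 2 higher and 3 lower; among all genes 31.1% were lower in DRG than in OPC and 26.3% higher in OPC than in astrocytes. Axin2, the most widely used readout of the pathway, stood at 40.5, 42.5 and 38.0 CPM in astrocytes, 31.9, 50.9 and 47.3 CPM in OPC and 3.38, 2.61 and 2.76 CPM in DRG. The glial types overlapped and DRG lay below them. Axin2 was lower in DRG than in astrocytes (log2 difference −3.79, SE 0.25, adjusted p = 4.16e-06) and in OPC (log2 difference −3.89, SE 0.25, adjusted p = 5.34e-06). Ccnd1, a cyclin of dividing cells with many inputs besides Wnt, averaged 683 CPM in astrocytes, 2495 in OPC and 51.8 in DRG. Nkd2, an inhibitor that acts on Dishevelled, stood at 10.3, 11.3 and 12.2 CPM in OPC, and averaged 0.38 CPM in astrocytes and 4.54 CPM in DRG (log2 difference 4.92, SE 0.56, adjusted p = 0.000162 for OPC against astrocytes). Its relative Nkd1 was higher in OPC than in astrocytes by 3.10 (SE 0.45, adjusted p = 0.000547), and Tnfrsf19 by 2.07 (SE 0.56, adjusted p = 0.0127; 3.00 without astrocyte replicate 1). Myc and Sp5 were not tested; Myc, with 4 accessions, was listed at 0 in every library.

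Nuclear factors gave 2 higher and 6 lower in DRG against astrocytes, 0 higher and 7 lower in DRG against OPC, and 3 higher and 2 lower in OPC against astrocytes, of 10 tested. Tcf7, which binds DNA for beta-catenin, stood at 26.8, 48.0 and 27.7 CPM in astrocytes, 3.49, 7.02 and 5.41 CPM in OPC and 0.78, 0.38 and 0.65 CPM in DRG, with no overlap. It was lower in DRG (log2 difference −5.84, SE 0.47, adjusted p = 1.17e-05) and OPC (log2 difference −2.69, SE 0.40, adjusted p = 0.000579) than in astrocytes. Tle2, a co-repressor with 2 accessions, averaged 6.68 CPM in OPC, 0.53 in DRG and 0.10 in astrocytes (log2 difference 5.92, SE 0.62, adjusted p = 9.53e-05 for OPC against astrocytes; 6.96 without astrocyte replicate 1). Lef1, with 3 accessions, was listed at 0 in all 9 libraries. Of 17 tested genes of the beta-catenin cascade, 8 were higher and 4 lower in DRG than in astrocytes, 6 higher and 5 lower in DRG than in OPC, and 6 higher and 2 lower in OPC than in astrocytes. Dvl2, a Dishevelled protein that carries the signal from Frizzled, averaged 8.43 CPM in DRG, 45.9 in astrocytes and 65.9 in OPC. The other Dishevelled genes differed from it. Dvl1 averaged 139 CPM in DRG, 104 in astrocytes and 94.9 in OPC, and passed as higher in DRG than in OPC (log2 difference 0.55, SE 0.19, adjusted p = 0.0286). Dvl3 averaged 56.8 CPM in DRG, 71.5 in astrocytes and 150 in OPC, and DRG against astrocytes did not pass. Gsk3b, the kinase that marks beta-catenin for degradation, was higher in DRG than in astrocytes, with 649 CPM in DRG and 184 CPM in astrocytes (log2 difference 1.82, SE 0.23, adjusted p = 0.000148).

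Planar polarity genes, 10 tested, gave 2 higher and 5 lower in DRG against astrocytes, 3 higher and 2 lower in DRG against OPC, and 2 in each direction in OPC against astrocytes. The cadherin Celsr3, a partner of Fzd3 in axon guidance, stood at 100.8, 92.0 and 88.1 CPM in DRG, averaged 21.8 CPM in OPC and 1.24 CPM in astrocytes. Its relative Celsr1 averaged 99.9 CPM in astrocytes, 1.55 CPM in DRG and 0.63 CPM in OPC (log2 difference −6.02, SE 0.76, adjusted p = 0.00015, and −7.30, SE 0.81, adjusted p = 0.00013; the latter −8.60 without OPC replicate 1). Celsr3 was higher in DRG than in astrocytes (log2 difference 6.25, SE 0.44, adjusted p = 5.85e-06) and in OPC (log2 difference 2.10, SE 0.36, adjusted p = 0.000901). Daam2, which acts with Dishevelled, averaged 278 CPM in astrocytes, 5.83 CPM in DRG and 1.40 CPM in OPC. Vangl2, a core polarity protein, averaged 2.29 CPM in DRG and 37.9 CPM in OPC (log2 difference −4.06, SE 0.50, adjusted p = 0.000139).

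**Figure D5:**
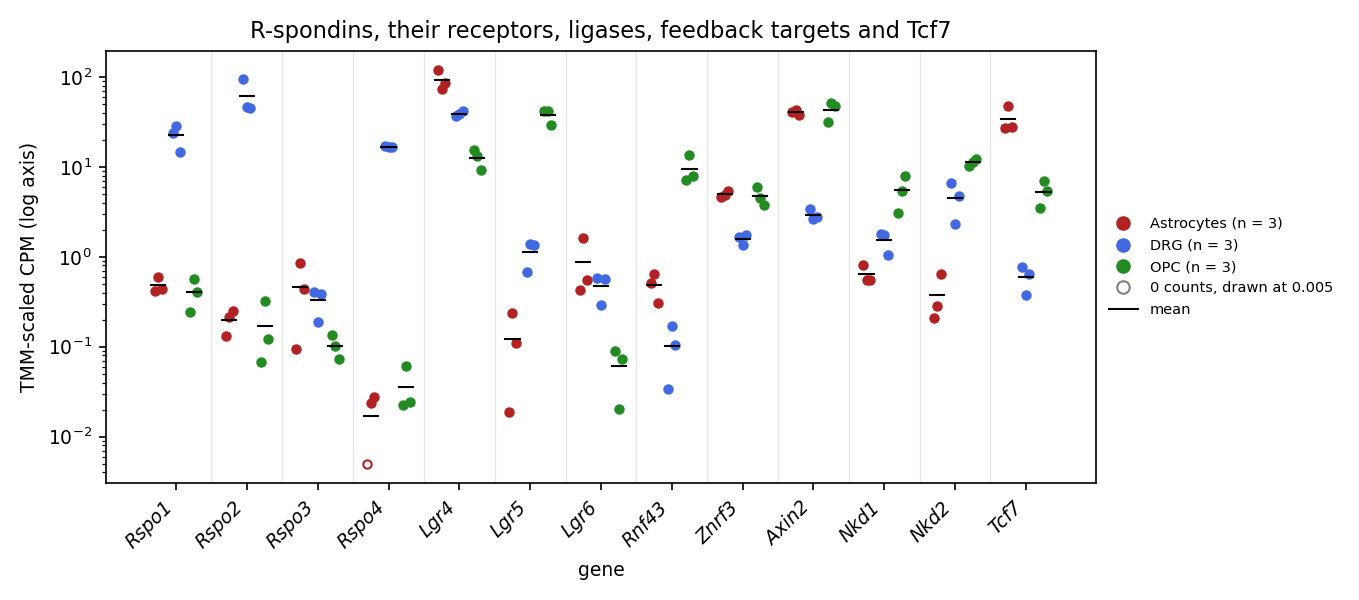
TMM-scaled CPM on a log axis for the R-spondins, their receptors, the ligases Rnf43 and Znrf3, the targets Axin2, Nkd1 and Nkd2, and Tcf7, with 1 point per library and a bar at the mean of 3; the open point had 0 counts. Rspo1, Rspo2 and Rspo4 lie at 14.7 CPM or more in DRG and below 1 CPM in glia, while Axin2 lies at 31.9 CPM or more in glia and at 3.38 CPM or less in DRG.

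DRG cultures also held transcripts of glia and fibroblasts. Of 8 genes of Schwann cells and satellite glia, 7 reached 5 CPM in DRG, with sums of 3110, 8282 and 7022 CPM, most of it Ngfr, which sensory neurons express too. Sox10 stood at 9.24, 4.21 and 16.3 CPM in DRG replicates 1 to 3. The same list summed to 683 to 1179 CPM in astrocytes and 1918 to 3371 CPM in OPC, where Fabp7 and Sox10 led it. Fibroblast collagens averaged 89.0 CPM (Col1a1), 119 CPM (Col1a2) and 134 CPM (Col3a1) in DRG, against 73.2, 98.8 and 20.2 CPM in astrocytes and at most 0.39 CPM in OPC. Which cells of the DRG cultures carried Frzb, Sfrp4, Wnt9a, Wnt16 or the R-spondins was not tested.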

How the data were processed

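RNA was extracted with TRIzol and made into stranded mRNA libraries, per the labels' protocols. Reads were aligned to mm10 with TopHat2 and counted with HTSeq, per the submitters' processing notes; no tool version and no strand setting was given in the sources used here. Values in the deposited files are raw counts for 33787 RefSeq accessions, not normalized. HTSeq leaves out reads that fit more than 1 feature, so where accessions of 1 gene overlap, shared reads can be missing; 6 members have more than 1 accession (Fzd5, Fzd6, Wnt5a, Wnt5b, Wnt7b and Wnt11) and the other 35 have 1. Ambiguous reads, 22 to 24.7% of all reads, and the other totals of unassigned reads stayed out of library sizes.

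Gene names came from RefSeq's GRCm38.p6 table (33315 accessions), which is the mm10 assembly, or from GENCODE vM21 (193), and 279 had none; counts were added per gene. Depth was 30710093 to 53594210 assigned of 56683071 to 93305766 reads. Genes were tested with edgeR 4.0.16 (R 4.3.3), by its quasi-likelihood F-test, in a model of all 9 libraries with TMM and filterByExpr (minimum count 10); 6 residual degrees of freedom remained. Every p was adjusted by Benjamini-Hochberg over the 14848 genes kept, with a threshold of 0.05. Each SE is the log2 difference divided by the square root of F, not a standard error of the fit. Groups at 0 counts were compared with a floor of 3 counts over the group. The 95% intervals and floors cover counting error only, as reads carry no molecular identifiers. The design text calls the 3 libraries of a type biological replicate experiments. The test was checked on simulated counts. In DRG against astrocytes it called 46 of 100 genes with a simulated 2-fold change and 98 of 100 with a 4-fold change. It also called 8 unchanged genes there. A true 2-fold difference could thus fail to pass in that setting. The simulation changed only 100 genes at each fold and gave every gene the same spread between libraries. In the data 60.2% of genes passed in this comparison and the spread differed by gene, so the simulated shares need not hold there.

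Members at 5 CPM or more in a cell type (20) are given per library, those between 1 and 5 CPM (8) by group means and those below 1 CPM (13) by range; members called by at least 2-fold against both other types have full statistics. From each pathway list the 3 called genes with the largest difference per comparison, at 5 CPM or more, could be named. Values of single libraries and pathway genes outside this rule, and the other marker genes named, were chosen after they were seen. Members and lists were chosen with earlier results of these data known. Alternatives were RLE size factors, library size alone, no filter, DESeq2 1.42.0, only the compared cell types, a replicate block, the top accession per gene, a removed length trend (lengths for 97.3% of genes), and leaving out libraries.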

Additional observations from a re-analysis of the deposited data

How the results depend on the processing

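Each comparison was refitted under 18 alternatives. Members called ranged from 21 to 25 for DRG against astrocytes (22 as reported), 16 to 21 for DRG against OPC (20) and 19 to 24 for OPC against astrocytes (22). All genes called ranged from 7758 to 9439 (8938), 7657 to 9451 (8833) and 6492 to 8140 (7689). Astrocytes were lowest against both others for 1 member, not 3, with only the compared cell types, and for 1 to 3 over the fits without 1 library; DRG were highest for 1 to 3 members over those fits. RLE size factors moved the median log2 difference of all genes by 0.07, 0.17 and −0.10 in the 3 comparisons in that order, library size alone by −0.26, −0.15 and −0.11, and the length trend by 0.13, 0.07 and 0.05.

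Of the values of single genes under an alternative, 2424 kept direction and side of the threshold, 62 fell below it, 24 passed it and 40 changed sign. Those that changed sign had not passed as reported, and the cause was not tested. Leaving out 1 library, DRG against astrocytes ran from −0.99 to 0.29 for Sfrp4, −0.94 to 0.31 for Sfrp5, −0.95 to 0.11 for Wnt2 and −0.97 to 0.60 for Wnt4. DRG against OPC ran from −0.99 to 0.59 for Fzd5, −0.29 to 0.31 for Fzd7, −0.19 to 0.16 for Fzd8 and −0.25 to 1.45 for Wnt4. OPC against astrocytes ran from −0.50 to 1.70 for Fzd10, −2.03 to 0.48 for Wnt4 and −0.11 to 0.29 for Axin2. In DRG against OPC, Fzd7 and Fzd8 were 0.10 and 0.12 with RLE size factors, 0.10 and 0.11 with DESeq2, 0.012 and 0.023 with the length trend removed, and 0.078 and 0.098 without the first astrocyte and the third OPC library; Fzd5 was −0.032 with library size alone. Without this pair of libraries Wnt4 was 0.70 in DRG and 0.70 in OPC against astrocytes, Fzd10 was 1.42 and Axin2 −0.11 in OPC against astrocytes. Fzd10 was 0.018 there with the length trend removed, and Axin2 −6.91e-05 with only the compared cell types.

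The main fit took no pairing by replicate number. Deviations of same-numbered libraries correlated between −0.04 and 0.13, and those of differently numbered libraries between −0.13 and 0.08. For 3 of 9 libraries the best match in both other cell types had their own number. With 3 libraries per type, these values cannot show whether the numbers stand for a pairing. With a replicate block, 21, 19 and 22 members and 8747, 8694 and 7421 genes were called in the 3 comparisons. Under the block Wnt2 was 0.054 and Wnt4 0.012 in DRG against astrocytes, Fzd5 −0.051 in DRG against OPC and Fzd10 0.51 in OPC against astrocytes.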
